A study of Mus musculus with 10 samples.

Results

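The Siglec receptors of mouse peritoneal macrophages were followed as 6 genes: Siglec1, Cd22, Cd33, Siglece, Siglecf and Siglecg. They were taken by name from a table of reads per gene that held 29700 gene rows after circular RNAs were set aside, and all 6 were found in it. Of these, 5 passed the filter on low counts and were tested among 12654 genes. Siglecg stayed below the filter and is described by its counts.

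Siglecs are receptors of the immunoglobulin family that bind sialic acid, the sugar that caps many glycan chains on cell surfaces. Most carry short tyrosine motifs in the tail that faces the cytoplasm, which recruit phosphatases and damp signalling by activating receptors. The CD33-related Siglecs, here Cd33, Siglece, Siglecf and Siglecg, lie side by side in the genome and are found mainly on cells of the innate immune system, whereas Cd22 is best known as an inhibitory receptor of B cells and Siglec1, or sialoadhesin, as a macrophage adhesion receptor without such motifs.

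The macrophages came from wild-type C57BL/6 mice of 8 weeks and were collected from the peritoneal cavity on the third day after thioglycollate, an irritant that draws inflammatory macrophages into the cavity. The 5 control and 5 ox-LDL libraries are described in the series as biological replicates. By the labels, the ox-LDL cells were given LPS (bacterial lipopolysaccharide) at 100 ng/ml before 16 h with 100 µg/ml of ox-LDL, the oxidized form of low-density lipoprotein that macrophages take up in atherosclerosis, and the control cells had neither. The sources disagree on this point. The growth and treatment notes of the samples and a figure legend of the study can be read as LPS priming in both groups. The treatment labels were followed, so LPS and ox-LDL cannot be told apart in any difference given here.

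Library totals were 20094647 to 20687289 counts in the controls and 19257131 to 20358017 in the ox-LDL group. The macrophage markers Lyz2, Cd68 and Adgre1 were the most abundant of 9 listed, with a summed level of 22769 to 42075 CPM (counts scaled to a common total) by library size in the controls and 13129 to 27969 in the ox-LDL libraries. Summed markers of B cells, eosinophils, mast cells, T and NK cells, dendritic cells, neutrophils and resident peritoneal macrophages overlapped between the groups, and those of mesothelial and stromal cells did not (17.4 to 59.0 CPM in the controls, 65.4 to 172 in the ox-LDL libraries). Dcn, Col1a2 and Col1a1 were the most abundant of that list and were called higher (log2 fold change 1.57, 2.40 and 2.72, adjusted p = 0.00320, 0.00248 and 0.00120 by edgeR). Its mesothelial markers did not rise with them. Upk3b went from 0.524 to 0.0750 TMM-normalized CPM without overlap. Msln (0.101 and 0.120) and Krt19 (0.461 and 0.539) overlapped, and all of these were too low to be tested. The part of this summed signal in the results was not tested. One library, ox-LDL 2, stood apart, with a TMM normalization factor of 0.593 against 0.837 to 1.19 in the other 9. Of all genes tested, 1189 were called higher and 677 lower by edgeR's quasi-likelihood test at an adjusted p below 0.01, whereas limma on the deposited FPKM, the length-scaled level, called 555 higher and 750 lower.

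Siglece and Cd33 were upregulated, and Cd22 and Siglecf were downregulated, in the ox-LDL libraries. Siglec1 did not pass the test. The 2 members called higher compare with 9.4% of all genes tested and the 2 called lower with 5.35%, and 14.7% of all genes were called in either direction. With a log2 fold change beyond 2 as well, 1 member was higher (Siglece, 4.78% of all genes) and 1 lower (Siglecf, 1.93% of all genes). Siglece reached the filter through the ox-LDL libraries alone and Siglecf through the controls alone, so both had to differ to be tested, and the count of called members is not read as a property of the family.

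**Figure D1:**
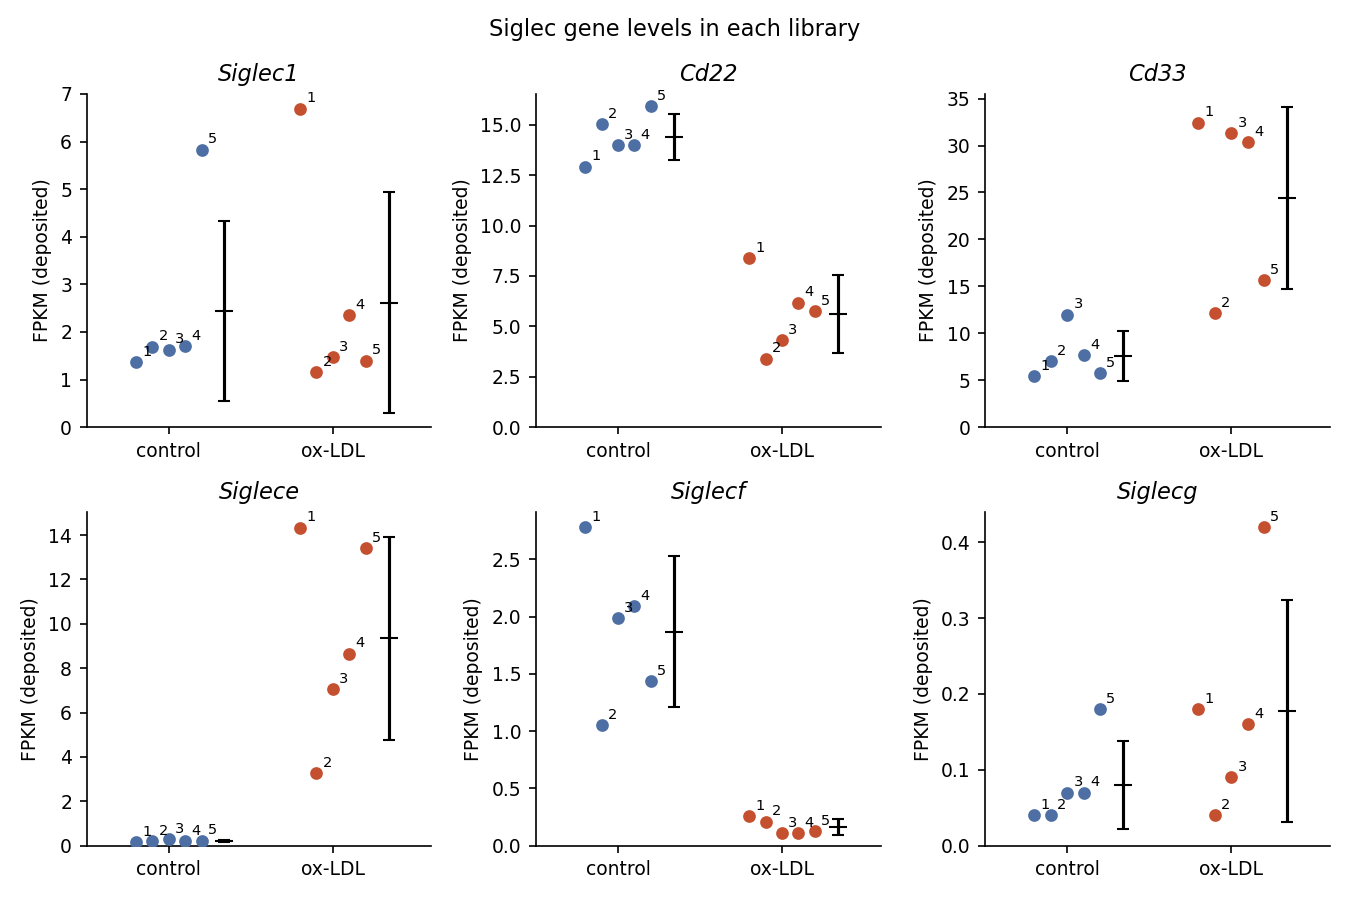
Deposited level of each Siglec gene (FPKM, linear axes from 0) in the 5 control (blue) and 5 ox-LDL (red) libraries, with points numbered by replicate and bars giving the mean ± SD. Siglece rose from at most 0.28 to at least 3.28, Cd22 and Siglecf fell without overlap, and Siglec1 was high in control 5 and ox-LDL 1.

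Sequence upstream of 3 CD33-related members is shown first, because these neighbours on chromosome 7 moved in opposite directions. In the mm9 build used for the alignment, GENCODE vM1 places Siglecf at chr7:50606711-50614901 on the plus strand (under its older name Siglec5), Siglecg at chr7:50663574-50673728 on the plus strand, Cd33 at chr7:50782826-50788541 on the minus strand and Siglece at chr7:50906440-50915531 on the minus strand, a span of 308.8 kb from Siglecf to Siglece. Cd22 lies apart on the same chromosome at chr7:31650421-31665361 on the minus strand, and Siglec1 at chr2:130894956-130912501 on the minus strand. None of the 6 genes overlapped another annotated gene. The 250 bases before the start of transcription are given from RefSeq on GRCm38.p6, for Siglece at chr7:43660162-43660411 (minus strand), for Cd33 at chr7:43533172-43533421 (minus strand) and for Siglecf at chr7:43351091-43351340 (plus strand). Each matched mm9 once, directly before the annotated gene start. Capitals mark the longest run of bases that any pair of members had in common.
Siglece: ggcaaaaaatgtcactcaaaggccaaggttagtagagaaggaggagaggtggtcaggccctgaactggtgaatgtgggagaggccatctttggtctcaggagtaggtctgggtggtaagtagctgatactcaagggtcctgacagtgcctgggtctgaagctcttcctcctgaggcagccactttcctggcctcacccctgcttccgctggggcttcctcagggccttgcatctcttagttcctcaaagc
Cd33: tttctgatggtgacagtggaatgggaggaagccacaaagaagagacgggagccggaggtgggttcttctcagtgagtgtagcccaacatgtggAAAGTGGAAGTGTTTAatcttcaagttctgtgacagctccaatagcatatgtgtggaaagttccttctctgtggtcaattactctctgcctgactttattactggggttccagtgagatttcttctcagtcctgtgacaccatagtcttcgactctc
Siglecf: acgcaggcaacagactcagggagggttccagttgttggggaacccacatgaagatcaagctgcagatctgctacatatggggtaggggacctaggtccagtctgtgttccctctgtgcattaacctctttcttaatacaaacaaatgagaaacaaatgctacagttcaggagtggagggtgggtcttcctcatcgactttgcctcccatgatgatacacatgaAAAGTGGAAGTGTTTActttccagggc

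The shared run, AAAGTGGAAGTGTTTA, is 16 bases long and begins 157 bases before the start of Cd33, which rose, and 27 bases before the start of Siglecf, which fell. It stood in 2 of 32851 RefSeq promoter windows, or 0.00609%, and these are the windows of Cd33 and Siglecf from which it was taken. The share is therefore no test of whether the run is unusual. The run was found by comparing the windows with each other, and other pairs among Cd22, Cd33, Siglece, Siglecf and Siglecg had at most 10 bases in common. Siglece, the member that rose most, did not hold it. A search of both strands for the core of the interferon-stimulated response element (GAAA, any 2 bases, GAAA) and for GAGGAAGT, a core bound by the myeloid factor PU.1, found neither in the windows of these 5 members, while 2.98% and 2.44% of all windows held them. At such shares so few windows would mostly hold neither, so the absence is not read as a property of the members. The Cd22 window lay inside the gene annotated on mm9, and the Siglecg windows reached 35 and 76 bases into theirs. Siglec1 had no window in the table.

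Siglece, an inhibitory Siglec of mouse neutrophils and macrophages, was nearly silent in the controls. Its FPKM was 0.16, 0.22, 0.28, 0.20 and 0.23 in controls 1 to 5, from 5 to 8 reads per library. In the ox-LDL libraries it was 14.33, 3.28, 7.06, 8.66 and 13.41, from 104 to 444 reads. Every ox-LDL library was thus far above every control, and the spread lay within the ox-LDL group, where replicate 2 was lowest. The normalised level went from 0.298 ± 0.0344 to 15.7 ± 6.86 CPM (mean ± SD, TMM-normalized, n = 5 each). The log2 fold change was 5.69 (SE 0.36), or 51.5-fold with a 95% interval of 30.04 to 88.3, at an adjusted p of 3.04e-06 in edgeR's quasi-likelihood test. Siglece ranked 7 by p among the genes tested, and 82 of the genes called higher had a larger fold change. Because neutrophils also carry Siglece, their markers are given beside it: the summed level of the 8 neutrophil markers found was 60.0 to 133 CPM by library size in the controls and 77.5 to 196 in the ox-LDL libraries, so these groups overlapped. Within that list S100a8 rose (log2 fold change 2.76, adjusted p = 0.00310 by edgeR), S100a9 was at 0.0695 and 0.0597 CPM, and Cxcr2, the neutrophil chemokine receptor, was at 0.467 and 0.0560 CPM in the control and ox-LDL groups. Csf3r, S100a8 and Mmp8 were the most abundant and so weighed most in the sum, and Csf3r and Mmp8 were not called. Camp was higher and Ltf lower in the ox-LDL libraries without overlap, but both were too low to be tested. In bulk RNA, more cells that express a gene and more RNA per cell cannot be told apart.

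Cd33, which in the mouse is a myeloid receptor related to the human protein of the same name, was already expressed in the controls and rose further. Its FPKM was 5.41, 7.01, 11.98, 7.67 and 5.76 in controls 1 to 5 and 32.45, 12.12, 31.36, 30.36 and 15.69 in ox-LDL libraries 1 to 5. The groups did not overlap, but control 3 and ox-LDL 2 nearly met. TMM-normalized levels were 22.3 ± 6.11 and 74.6 ± 18.8 CPM, a log2 fold change of 1.74 (SE 0.24, 95% interval 1.21 to 2.27) or 3.34-fold, with an adjusted p of 3.36e-04 in edgeR's quasi-likelihood test. Non-overlap of the groups in TMM-normalized CPM was seen in 20.6% of all genes tested. With CPM scaled by library size alone, ox-LDL 2 fell below control 3. The call was lost in limma on log2(FPKM + 1) without a filter on low values (log2 fold change 1.51, adjusted p = 0.0139). The length implied by the deposited counts and FPKM of Cd33 varied from 2642 to 3230 bases between libraries, so its FPKM and its counts were not in a fixed proportion.

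Siglecf, the mouse Siglec best known from eosinophils and alveolar macrophages, fell to a few reads. It was at 2.78, 1.05, 1.99, 2.09 and 1.44 FPKM in controls 1 to 5 (51 to 132 reads) and at 0.26, 0.21, 0.11, 0.11 and 0.13 in ox-LDL libraries 1 to 5 (5 to 12 reads). All 5 ox-LDL libraries were below the lowest control, which was control 2. TMM-normalized levels were 4.32 ± 1.99 and 0.444 ± 0.258 CPM, and the log2 fold change was -3.32 (SE 0.46, 95% interval -4.31 to -2.32), or 9.96-fold lower, with an adjusted p of 3.17e-04 by edgeR. Of the genes called lower, 65 had a fold change below that of Siglecf. Eosinophil markers were read beside it. The 6 of 8 markers found summed to 0.822 to 3.78 CPM by library size in the controls and 0.205 to 1.77 in the ox-LDL libraries, which overlapped. The most abundant of them was Ear2, a ribonuclease gene, which did not pass the test (log2 fold change -1.21, adjusted p = 0.257 by edgeR). Prg2, the major basic protein of eosinophil granules, and Ear6 were at 0 in every control, whereas Ccr3 had reads in every control. Prg3 and Epx were listed but not found. The median of the sum was 1.89 CPM in the controls and 0.660 CPM in the ox-LDL libraries. Control 2 was the lowest control for both the sum and Siglecf, control 4 was highest for the sum and control 1 for Siglecf. The part of eosinophil RNA in the fall of Siglecf was not tested beyond these values.

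Siglecg, an inhibitory receptor of B1 cells and some myeloid cells, was at the limit of detection. It had 2, 1, 3, 2 and 9 reads in controls 1 to 5 and 8, 1, 4, 7 and 20 in ox-LDL libraries 1 to 5, or at most 0.18 and 0.42 FPKM. The groups overlapped, and control 5 and ox-LDL 5 were each the highest of their group. TMM-normalized levels were 0.155 ± 0.136 and 0.432 ± 0.440 CPM (n = 5 each). An exact two-sided permutation test of log2(CPM + 1) gave p = 0.159. At this depth no difference in Siglecg was detectable.

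**Figure D2:**
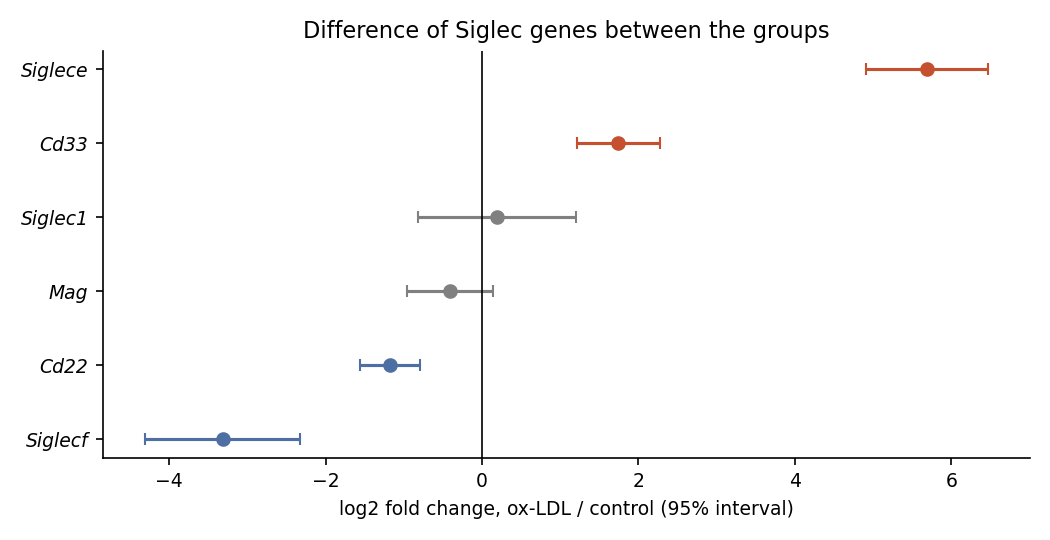
Difference between the groups as log2 fold change (ox-LDL over control) with 95% intervals from edgeR's quasi-likelihood fit, for the 5 Siglec members tested and Mag. Red and blue are genes called higher and lower, grey those not called. The intervals of Siglece (4.91 to 6.46) and Cd33 (1.21 to 2.27) lay above 0 and those of Cd22 (-1.56 to -0.80) and Siglecf (-4.31 to -2.32) below it.

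Cd22 was the most abundant Siglec of the control macrophages and fell in all ox-LDL libraries. Its FPKM was 12.92, 15.04, 14.00, 13.97 and 15.92 in controls 1 to 5 and 8.40, 3.40, 4.32, 6.18 and 5.77 in ox-LDL libraries 1 to 5. The controls lay close together, and the highest ox-LDL library, replicate 1, was well below the lowest control. TMM-normalized levels were 45.2 ± 3.48 and 19.97 ± 4.06 CPM, a log2 fold change of -1.18 (SE 0.18, 95% interval -1.56 to -0.80), or 2.26-fold lower, with an adjusted p of 5.32e-04 in edgeR's quasi-likelihood test. For Cd22, Cd33, Siglece and Siglecf the exact two-sided permutation test of log2(CPM + 1) gave p = 0.00794, the smallest value that 5 against 5 libraries allow. Any gene whose groups do not overlap gets this value, as 20.6% of all genes tested did not, so it only restates the lack of overlap. Siglece and Siglecf also had to differ to be tested.

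Since Cd22 is best known from B cells, their markers were read beside it. The 10 of 12 markers found summed to 1.90 to 3.74 CPM by library size in the controls and 1.04 to 4.58 in the ox-LDL libraries, against 42.5 to 53.5 and 11.5 to 27.7 CPM for Cd22 alone. Ebf1, a transcription factor of the B lineage, was at 0 in all controls. Cd79b, Fcrla and Ms4a1, the most abundant of the markers found, had reads in every library. Ighm and Ighd were listed but not found. Cd22 was higher than the sum of the markers found in every library, and these sums overlapped between the groups. The part of B cell RNA in the fall of Cd22 was not tested beyond these values.

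**Figure D3:**
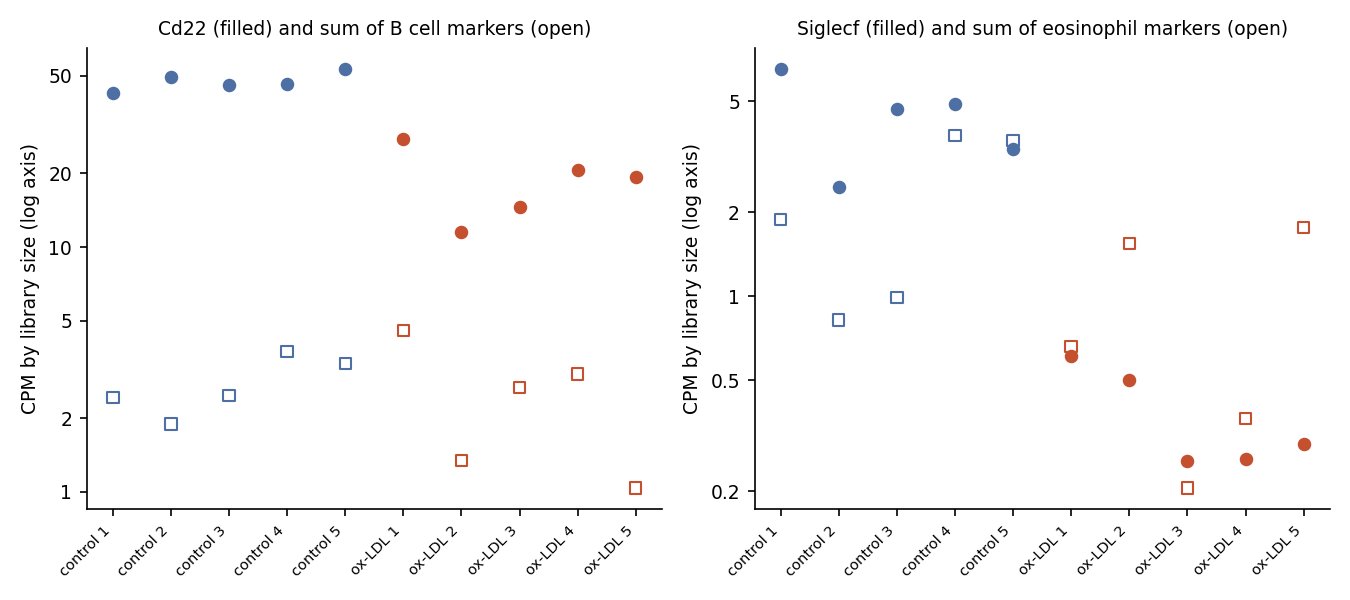
CPM by library size (log axis) in each of the 10 libraries for Cd22 with the sum of B cell markers (left) and Siglecf with the sum of eosinophil markers (right); filled circles are the Siglec gene, open squares the marker sum, blue control and red ox-LDL. Cd22 was above the B cell sum in every library, whereas Siglecf and the eosinophil sum were of similar size and crossed in some libraries.

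Siglec1, an adhesion receptor of macrophages that is known as an interferon-stimulated gene, was not called in either direction. Its FPKM was 1.36, 1.69, 1.63, 1.70 and 5.83 in controls 1 to 5 and 6.69, 1.15, 1.47, 2.35 and 1.4 in ox-LDL libraries 1 to 5. One library of each group, control 5 and ox-LDL 1, was far above the rest, and the other 8 overlapped. TMM-normalized levels were 17.0 ± 12.1 and 19.4 ± 13.2 CPM, and the log2 fold change of 0.19 (SE 0.46) had a 95% interval from 0.566-fold to 2.30-fold, with an adjusted p of 0.806 by edgeR. The estimate became -0.33 (adjusted p = 0.575) without ox-LDL 1 and 0.74 (adjusted p = 0.187) without control 5, and 0.22 (adjusted p = 0.458) without both, a setting chosen after the values were seen. Counts of Siglec1, unlike those of the other members, were not whole numbers, and how the counting divided reads is not stated in the sources used here.

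Other interferon-stimulated genes did separate the groups. Of 15 listed, 14 were called higher and none lower, where 9.4% of all genes tested were called higher and 5.35% lower. The median log2 fold change of the list was 3.31 against 0.10 over all genes tested. Irf9 missed the threshold (adjusted p = 0.0117 by edgeR). Rsad2, an antiviral enzyme, rose from 14.7 to 625 CPM and Isg15, a ubiquitin-like modifier, from 9.61 to 435 CPM. The summed level of the 15 genes was 215 to 403 CPM in the controls and 2055 to 6835 in the ox-LDL libraries. Siglec1 was not ordered like this sum across the groups. In ox-LDL 5, which had the highest sum, Siglec1 was at 12.6 CPM, below the 42.7 CPM in ox-LDL 1, where the sum was 3526 CPM. Within the controls, control 5 was highest in both, with 38.5 CPM of Siglec1 and a sum of 403 CPM against 215 to 321 in the other 4. Markers of resident peritoneal macrophages, which can express Siglec1, summed to 7.50 to 33.3 CPM by library size in the controls and 5.16 to 14.7 in the ox-LDL libraries. Control 5, with high Siglec1, had the lowest of the control sums and control 4 the highest, and ox-LDL 1 was at 10.1 CPM. Vsig4, Icam2 and Prg4 weighed most in the sum. Of the 5 genes of this list tested, 1 was called higher and none lower. The part of resident macrophage RNA in Siglec1 was not tested.

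**Figure D4:**
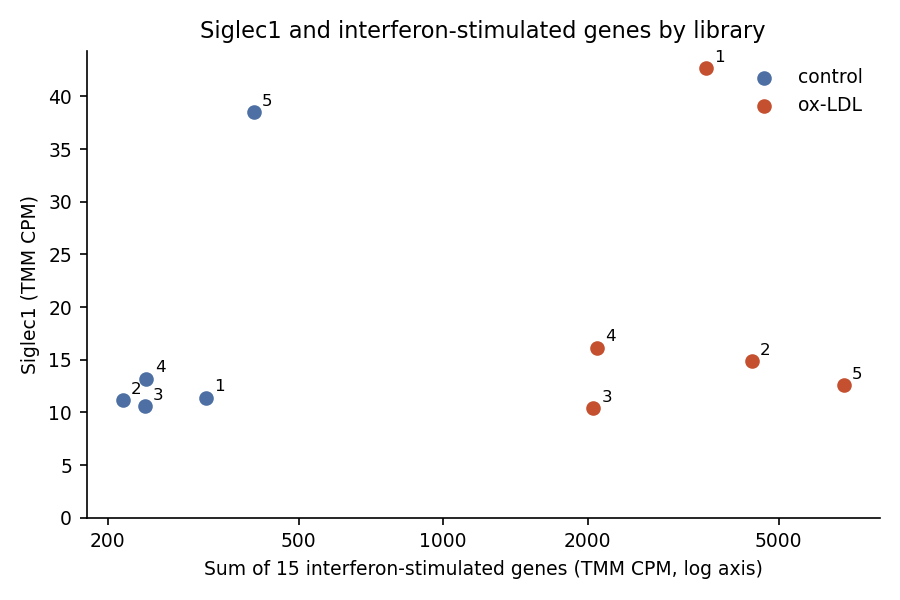
Siglec1 (TMM-normalized CPM, linear axis) against the summed TMM-normalized CPM of 15 interferon-stimulated genes (log axis), one point per library numbered by replicate, blue control and red ox-LDL. The ox-LDL libraries lay to the right (2055 to 6835 against 215 to 403), but Siglec1 was above 38 only in control 5 and ox-LDL 1.

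Among the Siglecs outside the 6 members, Siglec15, which is known from osteoclasts and macrophages, had 25, 25, 32, 22 and 16 reads in controls 1 to 5 and 2, 0, 3, 0 and 1 in ox-LDL libraries 1 to 5. The groups did not overlap, and the gene was called lower (adjusted p = 3.81e-04 by edgeR). Like Siglecf, it reached the filter through the controls alone and had to differ to be tested, so the call adds little to the counts. No fold change is given, because the ox-LDL counts were at most 3. Mag, the myelin-associated Siglec, which lies near Cd22 at chr7:31684202-31699851 on the minus strand, was at 3.53 to 3.86 FPKM in the controls and 1.80 to 3.07 in the ox-LDL libraries, and did not pass the test on counts (log2 fold change -0.41, adjusted p = 0.257 by edgeR). Its TMM-normalized level overlapped through ox-LDL 2 (9.68 CPM). Without ox-LDL 2 the change was -0.69 (adjusted p = 0.0200 by edgeR), still not called. Without control 5, ox-LDL 2 and ox-LDL 5, a choice made after seeing the data, Mag was called lower (-0.85, adjusted p = 0.00969 by edgeR). Siglech, a marker of plasmacytoid dendritic cells, had 6 reads in control 5 and in ox-LDL 5 and 0 in the other 8 libraries.

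The order of the Siglecs differed between the groups. Per length, the controls ran from Cd22 (14.4 ± 1.15 FPKM) over Cd33 (7.57 ± 2.63), Siglec1 (2.44 ± 1.90), Siglecf (1.87 ± 0.661) and Siglece (0.218 ± 0.0438) to Siglecg (0.0800 ± 0.0579). Cd22 was above Cd33, and Siglecf above Siglece, without overlap, whereas Cd33 and Siglec1 overlapped through control 5, and Siglec1 and Siglecf, and Siglece and Siglecg, overlapped as well. Compared within each library, Siglece was above Siglecg in every control and Cd33 above Siglec1 in all but control 5, while Siglec1 and Siglecf changed order. In the ox-LDL libraries the order was Cd33 (24.4 ± 9.69), Siglece (9.35 ± 4.58), Cd22 (5.61 ± 1.92), Siglec1 (2.61 ± 2.32), Siglecg (0.178 ± 0.146) and Siglecf (0.164 ± 0.0677). There the ranges of neighbours overlapped, except that Siglec1 stayed above Siglecg and Siglecf. Within every ox-LDL library, however, Cd33 was above Siglece and Cd22 above Siglec1. Siglece was above Cd22 in all but ox-LDL 2, and Siglecg and Siglecf changed order between libraries.

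Expressed as a share of the summed FPKM of the 6 members, Cd22 made up 46.7% to 60.0% of the Siglec transcripts in the controls and 9.73% to 16.8% in the ox-LDL libraries. Cd33 went from 19.6% to 40.0% in the controls to between 42.6% and 70.6%, and Siglece from below 1% (0.706% to 0.935%) to between 15.9% and 36.4%. Siglecf held 4.19% to 12.3% in the controls and 0.230% to 1.04% in the ox-LDL libraries, and Siglec1 5.44% to 19.9% and 3.31% to 10.7%. Only the shares of Siglec1 and Siglecg overlapped between the groups. The summed FPKM was 22.67 to 29.95 in the controls and 20.20 to 62.31 in the ox-LDL libraries, so the total overlapped through ox-LDL 2, whose shares lay within or next to those of the other ox-LDL libraries.

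**Figure D5:**
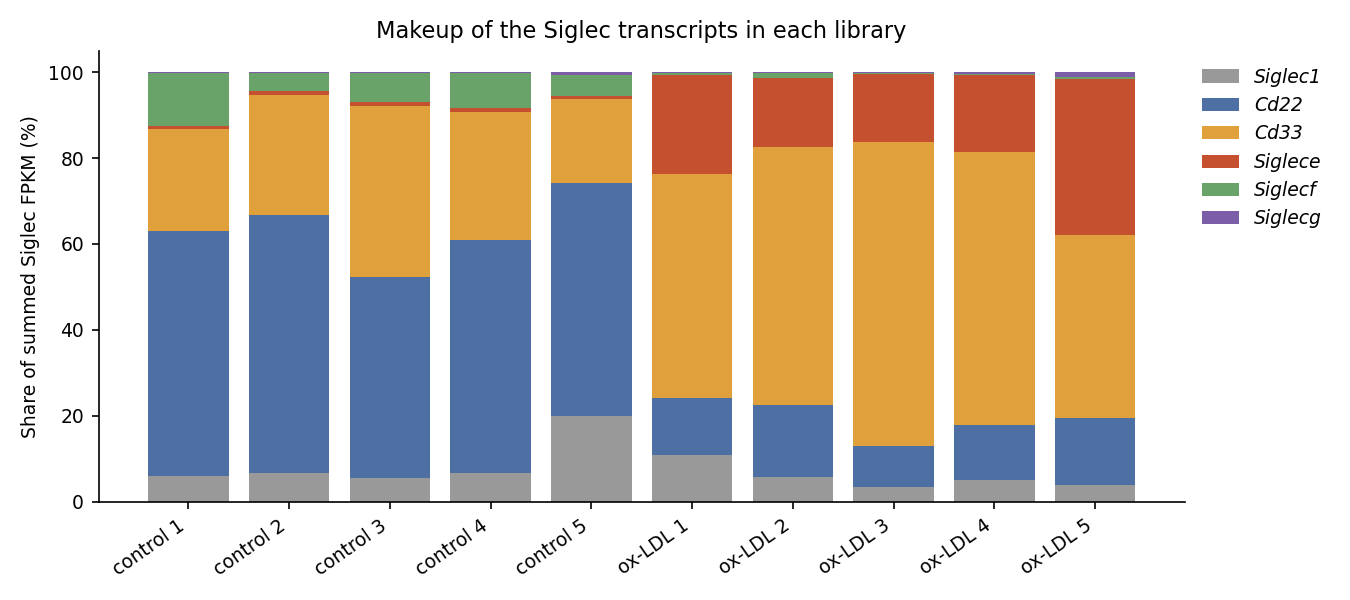
Share of each member in the summed FPKM of the 6 Siglec genes (percent, stacked to 100) in each control and ox-LDL library. Cd22 (blue) took 46.7% to 60.0% of every control bar, and Cd33 (yellow) with Siglece (red) took most of every ox-LDL bar.

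Ratios between members do not depend on the scaling between libraries. Cd33 was at 0.362 to 0.856 times the FPKM of Cd22 in the controls and at 2.72 to 7.26 times in the ox-LDL libraries. The ratio of Siglece to Siglecf was 0.0576 to 0.210 in the controls and 15.6 to 103 in the ox-LDL libraries. Siglece also rose relative to Cd33, the other upregulated member, from 0.0234 to 0.0399 in the controls to 0.225 to 0.855, and ox-LDL 5 had the highest value. Siglecf fell relative to Cd22, the other downregulated member: Cd22 was at 4.65 to 14.3 times Siglecf in the controls and at 16.2 to 56.2 times in the ox-LDL libraries. None of these 4 ratios overlapped between the groups.

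Downstream of the receptors, 13 genes of Siglec signalling were listed and tested, of which 2 were called higher and none lower (median log2 fold change 0.21). Over all genes tested, 9.4% were called higher and 5.35% lower, and the count is not read as a property of the list. The phosphatases that bind the inhibitory motifs were not called: Ptpn6, the main partner in leukocytes, was at 156 ± 10.9 and 155 ± 54.7 CPM (adjusted p = 0.992 by edgeR), and Ptpn11 at 36.2 ± 8.65 and 43.1 ± 10.6 CPM (adjusted p = 0.464). Socs3, an inhibitor of cytokine signalling, rose from 1.88 to 8.43 CPM in the controls to 49.1 to 506 in the ox-LDL libraries (log2 fold change 5.58, adjusted p = 3.22e-04 by edgeR), and the change was 4.58 without ox-LDL 5 and 6.19 without control 5. Src, a kinase that can phosphorylate the motifs, rose from 2.13 to 3.21 CPM in the controls to 18.8 to 73.3 (log2 fold change 4.09, adjusted p = 2.74e-05 by edgeR). Tyrobp, the adaptor DAP12 through which activating Siglecs signal, was at 1855 to 3544 CPM in the controls and at 633 to 775 in the ox-LDL libraries other than replicate 2, which was at 2663. It did not pass the test with all libraries (log2 fold change -1.20, adjusted p = 0.0683) and was called lower without ox-LDL 2 (-1.90, adjusted p = 2.41e-04). With all 10 libraries it was also called lower by library size alone (-1.55, adjusted p = 0.00194), in the limma fits on FPKM (-1.60, adjusted p up to 0.00363) and with the length trend removed (-1.17, adjusted p = 6.47e-05).

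The sialic acid that Siglecs bind is attached by sialyltransferases. Of 20 listed genes, 17 were in the table and 10 were tested, with 2 called higher, 3 called lower and a median log2 fold change of -0.28. The shares over all genes tested were 9.4% higher and 5.35% lower. St3gal4, whose product caps galactose on N-glycans and sialyl-Lewis structures, fell from 42.0 to 56.2 CPM in the controls to 12.05 to 20.01 in the ox-LDL libraries, without overlap (log2 fold change -1.66, adjusted p = 5.76e-05 by edgeR), and kept the call without any single library. The other 4 calls were close to the threshold. St6gal1, which makes the linkage that Cd22 prefers, was at 29.4 to 63.8 CPM in the controls and 7.05 to 27.2 in the ox-LDL libraries (-1.35, adjusted p = 0.00813), St6galnac6 at 40.5 to 66.5 and 31.4 to 36.6 (-0.71, adjusted p = 0.00954), St3gal1 at 17.5 to 42.4 and 40.4 to 124 (1.59, adjusted p = 0.00378) and St6galnac4 at 51.4 to 107 and 94.8 to 236 (1.34, adjusted p = 0.00467). Leaving out 1 library ended these calls in edgeR's test: for St3gal1 without any of controls 1 to 4, ox-LDL 3 or ox-LDL 4 (1.38 to 1.57, adjusted p up to 0.0132), for St6galnac4 without any of controls 1 to 4 or ox-LDL 3, 4 or 5 (1.19 to 1.37, up to 0.0169), for St6gal1 without any of controls 2 to 5, ox-LDL 3 or ox-LDL 4 (-1.37 to -1.19, up to 0.0232), and for St6galnac6 without controls 1, 2, 4 or 5 or ox-LDL 1, 3, 4 or 5 (-0.76 to -0.64, up to 0.0312). With all libraries, scaling by library size alone also ended the 4 calls (adjusted p = 0.0184 to 0.0305), limma on log2(FPKM + 1) with no filter did so as well (0.0133 to 0.146), and limma on filtered FPKM ended those of St3gal1, St6galnac4 and St6gal1 (0.0106 to 0.0569).

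Among genes for making and removing sialic acid, 1 was called, where 14.7% of all genes tested were called in either direction. None of 5 tested synthesis genes was called (median log2 fold change -0.33). Of 7 tested genes for sialidases and sialic acid breakdown, Casd1, the enzyme that adds acetyl groups to sialic acid, was called lower, from 17.7 to 24.3 CPM in the controls to 5.82 to 12.3 in the ox-LDL libraries (log2 fold change -1.41, adjusted p = 6.16e-04 by edgeR), and none was called higher. The call of Casd1 was lost in limma on log2(FPKM + 1) with no filter (-1.25, adjusted p = 0.0120). None of 5 tested genes for sialylated ligands of Siglecs was called (median log2 fold change -0.39).

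Genes whose levels ran most like those of a member over the 10 libraries were found among 7959 genes with at least 10 CPM in the mean of 1 group, by Pearson's r of log2(CPM + 1). For members that separate the groups, r mostly restates that separation, and it is given as a description. Nearest to Siglece were Irgm2 (r = 0.991), Ifi206 (0.991) and Herc6 (0.989), which are interferon-inducible genes. Nearest to Cd22 were Frmd4b (0.986), St3gal4 (0.984) and Sash3 (0.982), so the sialyltransferase that kept its call in every library left out was also among the nearest to Cd22. Cd33 ran most like Psip1 (0.978), Azi2 (0.976) and Tbce (0.972), and Siglecf most like Ryr1 (0.979), Fance (0.974) and Hdac1 (0.974). For Siglec1 the nearest were Slc7a7 (0.908), Xrcc1 (0.880) and Fbxl14 (0.812), and all 3 were highest in ox-LDL 1 and second in control 5, as Siglec1 itself was.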

How the data were processed

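RNA-seq of 10 libraries on the BGISEQ-500 platform was analysed, and each library's group and number follow its label. Per the submitters' processing notes, HISAT2 (version 2.0.5) was used with the mm9 build, together with SAMtools (version 1.4) and StringTie (version 1.3.3.13); the counting step and its use of strand are not given in the sources used here. The authors deposited estimated counts per gene, of which 13.6% were not whole, and a length-scaled value with no named unit, which was treated as FPKM because the count divided by the value and by the library total gave a length that was much alike between libraries: among 6791 genes with at least 100 counts and a value of at least 1 in every library, the highest was within 10% of the lowest for 73.3% of genes. Of 39488 deposited rows, 9788 circular RNAs were left out. Symbols came from RefSeq names of GRCm38.p6 (22818 of 23382 NCBI identifiers matched; 6318 identifiers starting with BGIG had none) and positions from GENCODE vM1 on mm9. Siglecf was located under its synonym Siglec5, at the gene start that its RefSeq promoter matched.

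Estimated counts were rounded. Genes were filtered with filterByExpr by group (minimum count 10), normalized by TMM and tested with edgeR 4.0.16 (quasi-likelihood, robust dispersions, R 4.3.3) with Benjamini-Hochberg adjustment over 12654 genes, and called at an adjusted p below 0.01. The biological coefficient of variation was 37.3%. CPM were TMM-normalized unless given by library size, which was used for marker sums. Intervals and p-values measure the spread between libraries. The alternatives were DESeq2 1.42.0, limma 3.58.1 (voom, and log2(FPKM + 1) or log2(FPKM + 0.1) where 5 or more libraries reached an FPKM of 1, or with no filter), other normalizations and filters, an adjusted p below 0.05, removal of each library's trend on gene length, NCBI rows alone, all rows, a replicate block and each library left out. The procedures were tested on simulated data. The genes named were the 6 members, called members of the lists (up to 6 a list), Ptpn6, Ptpn11 and Tyrobp, and the 3 genes most like each member. Members, lists and rules were chosen with earlier results of these data known. Protein sequences were not analysed here. The value of 1 gene of a marker list is not reported here.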

Additional observations from a re-analysis of the deposited data

Results flagged for a closer look

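Single libraries far from the rest of their group were looked for among the 6 members by dividing the gap to the next library by the range of the group, with a limit of 0.71 for 5 libraries. Of 12 groups, 4 passed it, where chance gives about 1 in 20. Siglec1 in control 5 (38.5 against 13.2 CPM in the next control) had a gap of 0.907 of the range. Siglec1 in ox-LDL 1 (42.7 against 16.2 CPM) had a gap of 0.823. For Siglecg the gap was 0.754 in control 5 (0.391 against 0.128 CPM, from 9 reads) and 0.764 in ox-LDL 5 (1.19 against 0.348 CPM, from 20 reads). Siglece, Siglecf, Cd33 and Cd22 had no such library in either group. What set these libraries apart was not tested.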

How the results depend on the processing

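Cd22, Siglece and Siglecf kept their direction and their call in every alternative that could test them, with log2 fold changes of -1.40 to -1.07, 2.95 to 5.79 and -3.67 to -1.27. Cd33 ranged from 1.51 to 1.89 and lost its call in limma on log2(FPKM + 1) with no filter (1.51, adjusted p = 0.0139, against 6.15e-11 to 0.0139 over all alternatives), which left 1 member called higher. Requiring at least 10 counts in every library also left 1 called higher and 1 called lower, because Siglece and Siglecf were then not tested. Siglec1 was never called (adjusted p = 0.187 to 0.997 over the alternatives not chosen after seeing the data) and reversed to -0.10 with the length trend removed (adjusted p = 0.881), and leaving out 1 library gave -0.33 to 0.74. Without control 5, ox-LDL 2 and ox-LDL 5, a choice made after seeing the data, 2 members were called in each direction and Siglec1 was at 0.94 (adjusted p = 0.0784).

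St6galnac6 was also lost in limma-voom (adjusted p = 0.0110), with no filter on low counts (0.0198) and with circular RNA rows (0.0103). Ptpn6, near 0 in the edgeR fit, turned to 0.020 with the length trend removed and to 0.044 without control 5 and ox-LDL 1, and leaving out 1 library gave -0.25 to 0.075. Over all settings the sialyltransferases had 0 to 3 genes called higher and 1 to 4 lower, Siglec signalling 2 to 3 and 0 to 3, sialidases and breakdown 0 to 2 and 0 to 2, synthesis 0 and 0 to 1, ligands 0 and 0 to 1, and the interferon-stimulated genes 9 to 15 and 0. Over all genes, 1189 were called higher and 677 lower, against 1765 and 1244 in DESeq2, 704 and 583 by library size alone, 555 and 750 in limma on log2(FPKM + 1), 543 and 700 with a pseudocount of 0.1, 472 and 555 without its filter, 1647 and 1227 with the length trend removed, 1946 and 1653 without control 5, ox-LDL 2 and ox-LDL 5, 2045 and 1320 at an adjusted p below 0.05, and 826 to 1755 and 436 to 1502 with 1 library left out. The median log2 fold change of all genes moved from 0.10 to -0.09 by library size alone and -0.14 in limma on log2(FPKM + 1), and no called member changed direction.

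With the replicate number as a block, the calls of the 5 members tested did not change (Siglec1 0.20), those of St6gal1 (adjusted p = 0.0327) and St6galnac6 (0.0267) were lost, and 885 genes were called higher and 549 lower. Same-numbered libraries correlated at 0.03, -0.24, 0.42, -0.26 and 0.40, and 1 of 5 controls correlated best with its own number. No pairing by number was apparent, but so few libraries cannot exclude one. Counts of at most 12 for Siglecf after ox-LDL, 8 for Siglece in the controls and 20 for Siglecg limit the precision of those levels.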
